A study of Mus musculus with 6 samples.

Results

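The subunits of the respiratory chain and of ATP synthase were examined in dendritic cells taken from MC38 tumours, which grow from a mouse colon carcinoma line, 10 days after inoculation. Members were the protein-coding mouse genes whose symbols mark a subunit of complex I (Nduf followed by a, b, c, s or v and a number), complex III (Uqcr), complex IV (Cox4 to Cox8), complex V (Atp5) or a protein encoded on mitochondrial DNA (mt-Nd, mt-Cytb, mt-Co, mt-Atp). The annotation holds 94 such genes, and 92 of them were among the 26519 genes of the count table: 79 encoded in the nucleus and 13 on mitochondrial DNA. Cox8b and one of the 2 gene models called Atp5o were not analysed here. The groups were 3 libraries from wild-type (WT) and 3 from MAVS knockout (MAVS KO) host mice. Mavs encodes the adaptor on the mitochondrial outer membrane through which RNA sensors start interferon signalling. The knockout is a property of the host and not of the inoculated tumour cells, and both groups carried the same tumour. The sources used here give no strain, age or sex of the mice, no description of the deletion and no sorting scheme. Nor do the labels say whether each library came from one animal, so p-values measure the spread between these samples.

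Complex I takes electrons from NADH, complex III passes them from ubiquinol to cytochrome c, complex IV passes them to oxygen, and complex V uses the resulting proton gradient to make ATP. Every one of these complexes is built from proteins of both genomes: mitochondrial DNA supplies a few hydrophobic core subunits and the nucleus supplies the rest. The nuclear genes are known targets of the factors NRF1 and GABP, and the mitochondrial genes are read from long transcripts that are cut into single messages. In dendritic cells activation is known to shift metabolism between respiration and glycolysis.

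Stretches of mitochondrial DNA have been copied into the nuclear genome in the past, and some copies are so close to their source that a short read cannot be assigned to one of them. Among the 13 mitochondrially encoded members there were 5 for which an annotated nuclear pseudogene matched at 99% identity or more over at least 99% of the length: mt-Co2, mt-Co3, mt-Atp6, mt-Nd3 and mt-Nd4l. All of these copies lie side by side on the minus strand of chromosome 1 of GRCm38, the build also called mm10, within 5 kb of each other in the order of the mitochondrial genes. The 3 pairs printed here show how close such copies are and where they differ. Each stretch has 60 bases, is taken from the GENCODE transcripts, and is written 5′ to 3′ on the gene's own strand. Capitals mark the position at which the pair differs.
mt-Co1, chrM:6390-6449: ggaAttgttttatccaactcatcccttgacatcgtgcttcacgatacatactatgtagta
Gm29216, chr1:24616129-24616188: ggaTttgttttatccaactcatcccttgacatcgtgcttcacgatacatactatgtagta
mt-Co2, chrM:7013-7072: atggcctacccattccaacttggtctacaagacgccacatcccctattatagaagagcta
Gm28661, chr1:24615506-24615565: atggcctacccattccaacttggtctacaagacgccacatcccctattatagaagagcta
mt-Nd3, chrM:9459-9518: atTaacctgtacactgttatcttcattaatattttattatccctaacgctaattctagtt
Gm28438, chr1:24613060-24613119: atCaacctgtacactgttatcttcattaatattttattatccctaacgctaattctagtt
The mt-Co2 pair has no mismatch over 681 bases of a 684-base gene. The mt-Nd3 pair has 1 mismatch over 345 bases of a 348-base gene. The mt-Co1 copy covers only the last 483 bases of a 1545-base gene, with 1 mismatch, so most of mt-Co1 has no annotated counterpart that close.

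Levels are given as CPM, a gene's counts over its library's size rescaled to a common total, after TMM scaling, which divides each library by an effective size robust to a few very abundant genes. Library totals ran from 14466640 to 20851733 counts. The targeted gene checked the labels: Mavs stood at 33.9, 39.7 and 39.7 CPM in the WT and 8.99, 12.8 and 9.45 CPM in the MAVS KO libraries, a log2 fold change of -1.86 (SE 0.18, adjusted p = 0.0017, edgeR quasi-likelihood test). No member lies within 15 Mb of Mavs on chromosome 2. All 14 conventional dendritic cell markers on the list were tested, and their summed level was 36210 to 43930 CPM in WT and 40150 to 50600 CPM in MAVS KO libraries. Of these, 4 were lower (Flt3, Zbtb46, Xcr1, Cd209a) and 1 was higher (Ccr7) at an edgeR adjusted p under 0.05. At that threshold 1.05% of all tested genes were lower and 1.76% higher. The 11 macrophage markers summed to 26430 to 31690 CPM in WT and 28110 to 35670 CPM in MAVS KO libraries. The libraries thus hold macrophage transcripts too, but sums over different gene lists do not compare amounts of the cell types. Of the 11, 8 had a positive log2 fold change (median 0.31) and 0 passed the threshold. The groups did not overlap for 6 higher and 1 lower, against 21.8% of all tested genes in either direction. Monocyte markers summed to 1787 to 3105 CPM in WT and 4365 to 13620 CPM in MAVS KO libraries. Of the 6 tested, 2 had a positive and 4 a negative log2 fold change (median -0.22), and 1 passed the threshold as higher. The higher sum therefore does not stand for most of that list. In bulk RNA, fewer cells of one type and less RNA per cell cannot be told apart, and the part of cell composition in the values below was not tested.

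One library stood apart for these genes, and this is given before the comparisons it touches. WT replicate 1 was the highest of the 6 libraries for 65 of the 87 tested members (74.7%), against 22.3% of all tested genes. Its members sat at a median of 0.247 log2 above their mean over the 6 libraries, whereas WT replicates 2 and 3 sat at -0.134 and -0.116. The MAVS KO libraries lay between them, at -0.066, -0.003 and 0.087. Both genomes showed it, with 57 of 77 nuclear and 8 of 10 mitochondrially encoded members highest in that library. Other genes moved with them: ribosomal protein genes sat at 0.217 in WT replicate 1, mitochondrial ribosome genes at 0.190, and the tenth of tested genes with the shortest exons at 0.142. The members are short genes too, with a median exon length of 1465 bases against 4220.5 bases for all tested genes. The part of gene length in this was not tested beyond the length correction in the closing section.

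**Figure D1:**
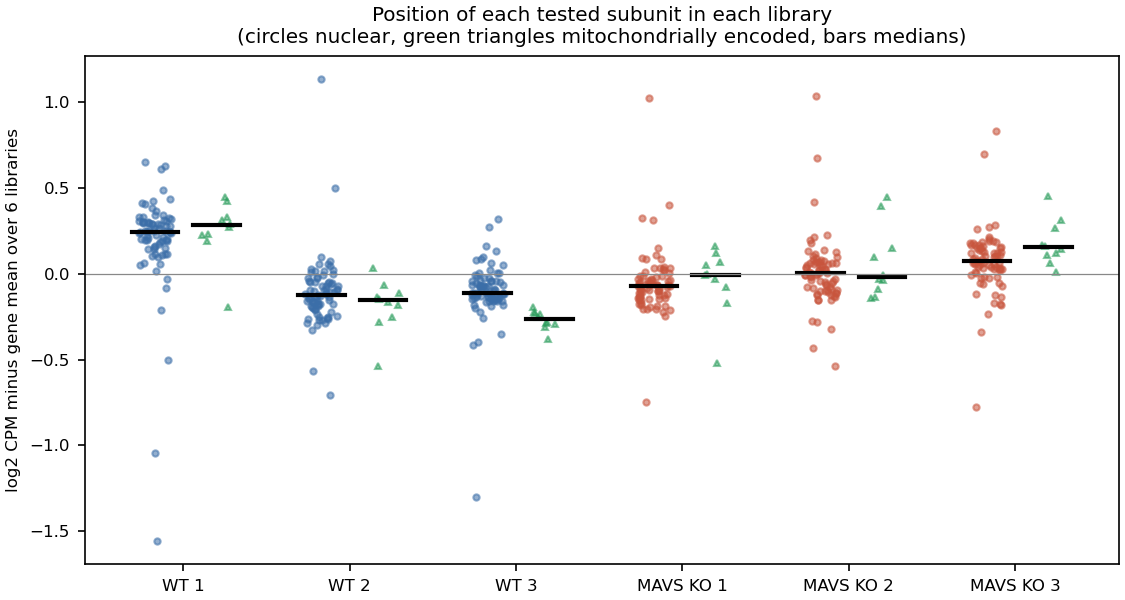
Each point is one tested subunit in one library, placed by its log2 CPM minus that gene's mean over the 6 libraries, with circles for nuclear and green triangles for mitochondrially encoded members and bars at the medians. The points of WT replicate 1 sit highest, at a median of 0.241 for nuclear and 0.280 for mitochondrially encoded members, and the 2 other WT libraries sit lowest.

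The first comparison asked whether loss of MAVS in the host changed any subunit. No member passed the threshold of 0.05 in the edgeR quasi-likelihood test adjusted over all genes: 0 of 87 tested, where 2.81% of all 12580 tested genes did (1.76% higher and 1.05% lower). An unadjusted p under 0.05 was found for 3 members (3.45%), namely Ndufa4l2, Atp5k and mt-Co2, against 16% of all tested genes. DESeq2's Wald test called 1 member, Ndufa4l2, and limma-voom called 0. The other 5 of the 92 members had too few counts to be tested: mt-Nd3, mt-Nd4l, mt-Atp8, Cox7b2 and Cox8c.

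The members also lay close to no change. Their median log2 fold change was 0.01 (all tested genes, -0.0022) and their median absolute log2 fold change was 0.09, against 0.23 for all tested genes. For 81 of 87 the fold change was within 0.3 log2 either way. The 95% interval lay within a 1.5-fold change in either direction for 75 of the 87 members (86.2%) and for 35.2% of all tested genes, and within a 2-fold change for 80 members (92%) and 63.9% of all tested genes. The members are abundant, with 75 of 92 at 20 CPM per kilobase of exon or more, and abundant genes have narrower intervals. Levels per kilobase here and below divide by the union of all annotated exons of a gene. That union can be much longer than a single transcript, so rankings between genes depend on it. The libraries of the groups did not overlap for 4 of the 87 tested members (4.6%), all higher in MAVS KO: Ndufa4l2, Cox4i2, Atp5k and mt-Co2. The same measure held for 21.8% of all tested genes. The 3 nuclear members among them, Ndufa4l2, Cox4i2 and Atp5k, were also the 3 of the 87 tested members that were lowest in WT replicate 1, and without that library their log2 fold changes were 1.12, 0.81 and 0.23.

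These counts depend in part on WT replicate 1. It was highest for 74.7% of members and 22.3% of all tested genes, so leaving it out raises the members' fold changes by construction. The shares of all tested genes below do not correct for this, and the counts are no support for a direction. Without WT replicate 2 or 3 the member median was -0.07 in each case. Without it 72 of 87 members were on the higher side in MAVS KO, where 49.4% of all tested genes were, and their median was 0.14 log2. The groups then did not overlap, with MAVS KO above, for 31 members (35.6%) against 16.3% of all tested genes. Still 0 members passed the threshold (smallest adjusted p = 0.0997, edgeR), against 1.51% of all tested genes, and 8 (9.2%) had an unadjusted p under 0.05 against 15.6%. With that library left out the 95% interval was within 1.5-fold for 76 members.

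**Figure D2:**
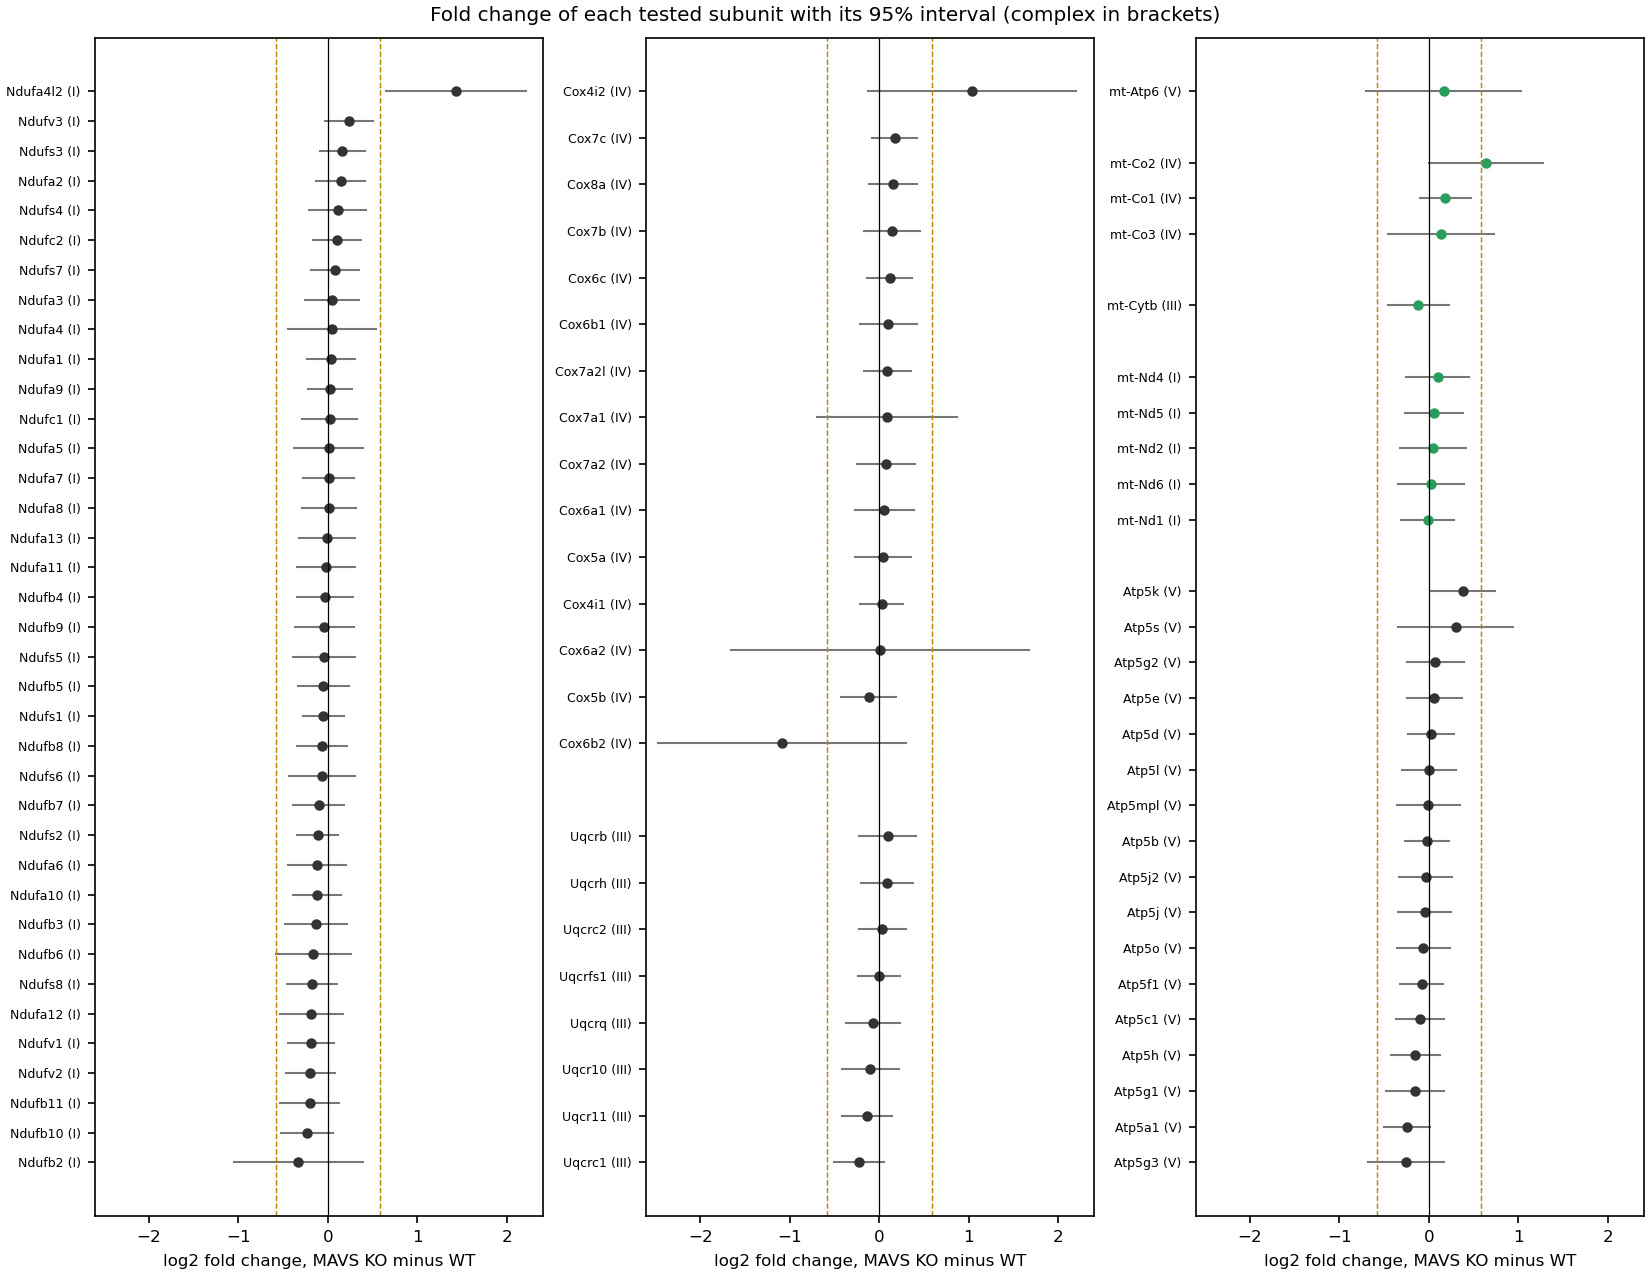
Points give the log2 fold change (MAVS KO minus WT) of each of the 87 tested subunits and lines its 95% interval from the edgeR fit, with green points for mitochondrially encoded members and dashed lines at 1.5-fold. Most intervals lie between the dashed lines, 75 of 87, and Ndufa4l2 is the member farthest above 0.

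Complex I, the largest of the complexes, contributed 37 nuclear members by symbol, all tested. Counted among them are Ndufa4, now placed with complex IV, and its paralogue Ndufa4l2. The median log2 fold change of the 37 was -0.04, with 15 positive and 22 negative, and 0 passed the threshold. The median was 0.09 without WT replicate 1. Ndufv1, the NADH-binding subunit at the tip of the matrix arm, stood at 155, 131 and 130 CPM in WT and 130, 119 and 115 CPM in MAVS KO libraries. MAVS KO replicate 1 and WT replicate 3 were level at 130 CPM, and the log2 fold change of -0.19 (SE 0.12) had an adjusted p of 0.476 (edgeR). Ndufb10, an accessory subunit of the membrane arm, read 128, 108 and 104 against 98.6, 83.0 and 106 CPM. That is a log2 fold change of -0.24 (SE 0.13, adjusted p = 0.439), and MAVS KO replicate 3 lay within the WT range. Ndufv3, another accessory subunit, read 116, 91.1 and 103 against 114, 128 and 123 CPM, a log2 fold change of 0.23 (SE 0.12, adjusted p = 0.391), again with overlapping groups. Per kilobase the most abundant were Ndufa1 at 285 and Ndufa2 at 256 CPM per kb, against a median of 61.6 over the nuclear complex I members. Ndufa1 lay at 129, 112 and 113 CPM in WT and 110, 116 and 137 CPM in MAVS KO libraries. The lowest, Ndufb2, had only 0.670 CPM per kb and a log2 fold change of -0.33 (SE 0.33), from 38 to 100 counts per library. Its exon union is long, at 5628 bases, and 7.9% of it overlaps Braf, Gm16272 or Gm42420. The part of length and overlap in its low level was not tested.

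Ndufa4l2 had the lowest p of the 87 tested members. It is a paralogue of Ndufa4 known to be induced by hypoxia through HIF1, and it lies at chr10:127514967-127517154 on the plus strand. It stood at 2.91, 7.10 and 6.50 CPM in the WT and 17.4, 17.5 and 9.60 CPM in the MAVS KO libraries, means of 5.50 ± 2.27 and 14.8 ± 4.54 CPM (SD, n = 3 each). Every MAVS KO library was above every WT library, although MAVS KO replicate 3 was closer to WT than to its own group's other libraries. The log2 fold change was 1.43 (95% interval 0.65 to 2.21, SE 0.35), with an unadjusted p of 0.00208 and an adjusted p of 0.063 in the edgeR test, just short of the threshold. Whether it passes depends on the method: the adjusted p was 0.0486 when only genes with a mean of at least 5 CPM were tested, 1.07e-05 with no filter on low counts and 0.0021 with DESeq2, but 0.0588 with limma-voom. Leaving out 1 library at a time gave log2 fold changes of 1.12 to 1.67 and adjusted p from 0.081 to 0.202.

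Complex III was the most even. Its 8 nuclear members, all tested, had log2 fold changes from -0.22 to 0.09 with a median of -0.04 (0.07 without WT replicate 1), and all 8 intervals lay within 1.5-fold. Uqcrc1, a core protein that faces the matrix, had the lowest p: it read 406, 393 and 472 CPM in WT and 420, 322 and 345 CPM in MAVS KO libraries, with overlap and a log2 fold change of -0.22 (SE 0.12, adjusted p = 0.437, edgeR). Uqcr11 and Uqcr10, small subunits of the membrane part, were the most abundant per length at 215 and 189 CPM per kb. Uqcr11 read 163, 135 and 135 against 119, 126 and 149 CPM, and Uqcr10 read 141, 100 and 101 against 101, 106 and 112 CPM. In both genes the highest value was in WT replicate 1. Uqcrh, the hinge protein at the cytochrome c docking site, read 106, 80.1 and 84.9 against 90.5, 94.0 and 104 CPM, a log2 fold change of 0.09 (SE 0.13). The range within complex III was narrow, with Uqcrc2 lowest at 40.3 CPM per kb and a median of 106.

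Complex IV had 13 of its 15 tested nuclear members positive (6243 of 12580 over all tested genes) and a median of 0.09, which became -0.08 with library size alone as the scale (all tested genes then had a median of -0.17) and 0.20 without WT replicate 1. No difference between complexes was tested, and 0 of the 15 passed the threshold. Without WT replicate 1 the MAVS KO libraries lay above both remaining WT libraries for 9 of 15 (60%), against 16.3% of all tested genes. The share was 27%, 37.5% and 23.5% for the nuclear members of complexes I, III and V. It was 50% for the mitochondrially encoded members, so a high share was not particular to complex IV. Cox7c, a small nuclear subunit, read 90.2, 88.3 and 82.4 CPM in WT and 88.9, 100 and 105 CPM in MAVS KO libraries, a log2 fold change of 0.17 (SE 0.11, adjusted p = 0.523, edgeR). Cox8a, a small membrane subunit, read 269, 211 and 215 against 246, 251 and 277 CPM, a log2 fold change of 0.15 (SE 0.12, adjusted p = 0.613). In both genes 1 WT library lay inside the MAVS KO range. Per kilobase of exon union, Cox6a1 at 422, Cox8a at 395 and Cox6b1 at 362 CPM per kb ranked highest among nuclear members of any complex. This order depends on the length used: the union is 702 bases for Cox6a1 and 4237 for Atp5b. Their longest coding transcripts have 571 and 1916 bases.

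Complex V, ATP synthase, had 17 nuclear members, all tested, with a median log2 fold change of -0.04 (6 positive, 11 negative), which was 0.10 without WT replicate 1. Its catalytic head is built from the alpha and beta subunits, Atp5a1 and Atp5b, which were its most abundant members at 210 and 280 CPM per kb. Atp5b read 1394, 1124 and 1066 CPM in WT and 1151, 1177 and 1201 CPM in MAVS KO libraries, and its log2 fold change of -0.02 had a 95% interval from -0.27 to 0.23. Atp5a1 read 777, 690 and 678 against 696, 539 and 576 CPM. MAVS KO replicate 1 lay above 2 of the WT libraries. The log2 difference was -0.24 (SE 0.12), and the edgeR adjusted p was 0.350.

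Atp5k, subunit e of the membrane part, which is known for holding ATP synthase dimers together, read 29.1, 36.6 and 43.8 CPM in WT and 43.9, 48.4 and 50.3 CPM in MAVS KO libraries. The groups did not overlap, but the highest WT and lowest MAVS KO libraries were nearly equal, and the log2 fold change of 0.38 (95% interval 0.02 to 0.74) had an unadjusted p of 0.0397 and an adjusted p of 0.285. It was lowest in WT replicate 1, where most members were highest, and without that library its log2 fold change was 0.23. Atp5h, a subunit of the peripheral stalk, read 178, 154 and 147 against 131, 140 and 160 CPM (log2 fold change -0.15, SE 0.12). Atp5s, whose product is an accessory factor and not a structural subunit, was the lowest of the set at 2.74 CPM per kb.

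**Figure D3:**
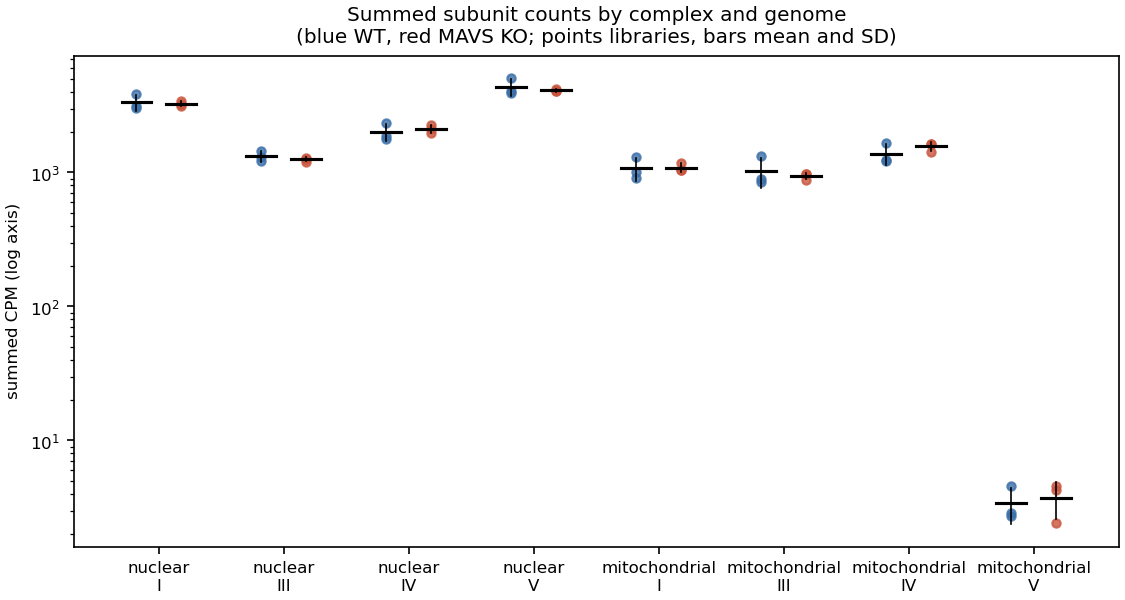
Summed CPM of the subunits of each complex on a log axis, with blue points for WT and red points for MAVS KO libraries and bars for mean and SD (n = 3). The groups overlap in all 8 sets, and the mitochondrially encoded complex V members sum to between 2.42 and 4.58 CPM, far below every other set.

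Summing the subunits gave the output of each genome. The nuclear members summed to 12740, 10100 and 10240 CPM in the WT and 10420, 10610 and 11190 CPM in the MAVS KO libraries. The mitochondrially encoded members summed to 4305, 3129 and 3002 against 3641, 3369 and 3793 CPM. In both sums WT replicate 1 was highest and the other WT libraries were lowest. As a share of all counts, without TMM scaling, nuclear members took 1.35%, 1.09% and 1.07% in WT and 0.984%, 0.995% and 1.06% in MAVS KO libraries, so the groups did not overlap on that scale and did on the TMM scale. The log2 ratio of the group means was -0.21 as a share of counts and -0.04 after TMM scaling. The TMM factors themselves differed by group, 1.043 to 1.080 in WT and 0.9389 to 0.9452 in MAVS KO libraries.

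The ratio of mitochondrially encoded to nuclear subunit counts does not depend on the scaling of the library. It was 33.8%, 31.0% and 29.3% in the WT and 34.9%, 31.8% and 33.9% in the MAVS KO libraries, means of 31.4% ± 2.27 and 33.5% ± 1.62 (SD, n = 3 each). The groups overlapped. Adding the counts of nuclear copies left it at 31.5% and 33.7%. Reads counted for neither gene nor copy would not be restored by this, and how reads with several matches were counted is not given. The mitochondrial sum therefore rests on the members that drew counts.

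The 13 mitochondrially encoded members spread over more than 3 orders of magnitude per length, although they are cut from shared long transcripts. On a scale of CPM per kb, mt-Co1 stood at 945, mt-Cytb at 862 and mt-Nd1 at 667. A middle group followed with mt-Nd4 at 113, mt-Nd5 at 91.8, mt-Nd2 at 83.0 and mt-Nd6 at 62.6. The remaining 6 were far lower: mt-Co3 at 7.0, mt-Co2 at 6.54, mt-Atp6 at 5.04, mt-Atp8 at 0.668, mt-Nd3 at 0.473 and mt-Nd4l at 0.169. These last 6 together took 0.00114% to 0.00158% of all counts in each library. Neighbours in this order overlapped in their library ranges except at 3 steps, from mt-Nd1 to mt-Nd4, from mt-Nd6 to mt-Co3 and from mt-Atp6 to mt-Atp8.

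The low members were those with near-identical nuclear copies, with one exception. The share of their length matched by an annotated copy elsewhere was 99.6% for mt-Co2, 99.9% for mt-Co3, 99.6% for mt-Atp6, 99.1% for mt-Nd3 and 99% for mt-Nd4l. It was 63.6% for mt-Nd4, 31.3% for mt-Co1 and 0 for the other members. All these shares count only matches at 99% identity or more. Less similar copies are annotated as well: Gm13340 matched mt-Co1 at 97.6% over 1545 bases. Gm13339 matched mt-Nd2 at 96.7% over 510 bases, and Gm4076 matched mt-Nd5 at 95.2% over 954 bases. The exception was mt-Atp8, which was low with no annotated copy. It shares 21.1% of its length with mt-Atp6, and the part of that overlap in its low counts was not tested. Only annotated transcripts were searched. On mitochondrial DNA mt-Atp8 lies between mt-Co2 and mt-Atp6, whose chromosome 1 copies are at 24614885-24615565 and 24613974-24614651. The stretch between those copies was not read, so an unannotated copy of mt-Atp8 was not tested for. The copies carried counts of the same order as the genes: over the 6 libraries mt-Co2 had 463 counts and its copies 405, mt-Co3 had 582 and its copy 796, and mt-Atp6 had 360 and its copy 511. For mt-Co1, by contrast, the copies had 882 counts beside 155186 in the gene. The sources used here do not say how reads with several matches were counted, and the part of the copies in these low levels was not tested.

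**Figure D4:**
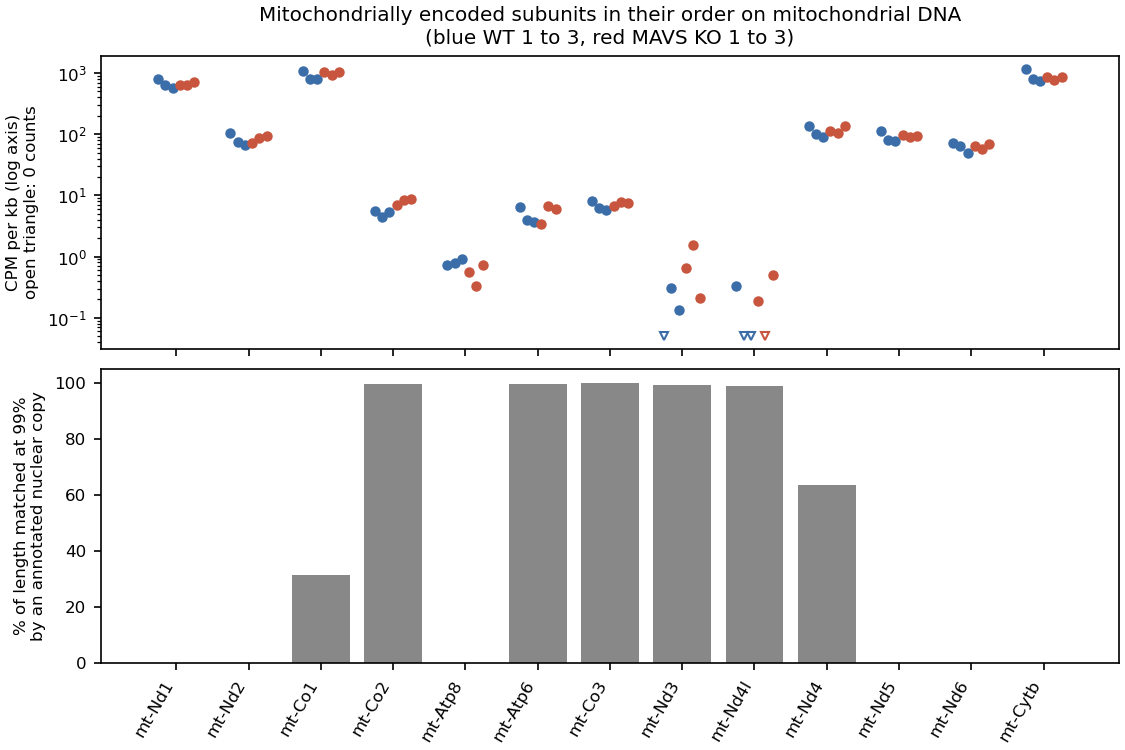
Upper panel: CPM per kb on a log axis of the 13 mitochondrially encoded members in their order on mitochondrial DNA, with blue points for the WT and red points for the MAVS KO libraries. Lower panel: the percent of each gene's length matched at 99% identity or more by an annotated nuclear copy; the 5 members at 99% or more are all below 10 CPM per kb in the mean, and mt-Atp8 is low at 0%.

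Among the 10 tested mitochondrially encoded members, 8 had a positive log2 fold change and 0 passed the threshold, with a median of 0.08 that was 0.26 without WT replicate 1 and -0.03 without WT replicate 3. The complex I members mt-Nd1, mt-Nd2, mt-Nd4, mt-Nd5 and mt-Nd6 ranged from -0.01 to 0.10. Of these mt-Nd6, the one member read from the opposite strand, stood at 37.8, 33.0 and 26.0 CPM in WT and 33.4, 29.2 and 35.7 CPM in MAVS KO libraries. mt-Nd1 read 774, 605 and 544 against 600, 617 and 690 CPM. All 5 overlapped between the groups and were highest in WT replicate 1.

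mt-Cytb, the mitochondrial subunit of complex III that binds the haems and ubiquinol, read 1327, 900 and 850 CPM in WT and 972, 886 and 979 CPM in MAVS KO libraries. Its log2 fold change of -0.12 (SE 0.16) turned to 0.10 without WT replicate 1. mt-Co1, the subunit of complex IV at which oxygen is reduced, read 1652, 1217 and 1235 against 1619, 1419 and 1618 CPM. WT replicate 1 alone lay above the MAVS KO libraries, and the log2 fold change was 0.18 (95% interval -0.10 to 0.47).

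mt-Co2, which receives the electrons from cytochrome c, was the one tested mitochondrially encoded member whose groups did not overlap. It read 3.80, 2.99 and 3.69 CPM in WT and 4.72, 5.70 and 5.93 CPM in MAVS KO libraries, from only 56 to 85 counts per library. The log2 fold change of 0.64 (SE 0.29) had an adjusted p of 0.309, and it was 0.42 (adjusted p = 0.423, edgeR) when the counts of its copies were added. mt-Co3 read 6.36, 4.86 and 4.47 against 5.34, 6.04 and 5.86 CPM, and its log2 fold change of 0.13 became -0.03 with the copy added. mt-Atp6, the proton channel subunit of ATP synthase, read 4.44, 2.72 and 2.53 against 2.30, 4.49 and 4.10 CPM. These 3 genes are therefore uncertain as measures of mitochondrial transcripts.

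The untested mitochondrial members had single counts. mt-Nd3 had 0, 2 and 1 counts in WT and 4, 8 and 1 in MAVS KO libraries, mt-Nd4l had 2, 0 and 0 against 1, 0 and 2, and mt-Atp8 had 3, 3 and 4 against 2, 1 and 2. In CPM the MAVS KO libraries lay below the WT libraries for mt-Atp8, at 0.112, 0.0671 and 0.146 against 0.148, 0.160 and 0.184, on a scale where 1 count decides the order. No difference was detectable at that depth.

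Several subunits of complex IV and of ATP synthase exist in alternative forms from separate genes, and the form in use was compared as a share of each set's CPM per kb. The size of these shares depends on the exon length used for each gene. Cox4i1 is the general form of subunit 4 and Cox4i2 the form known from lung and from hypoxic cells. Cox4i2 made up 0.299%, 0.449% and 0.786% of the pair in WT and 0.893%, 1.02% and 1.09% in MAVS KO libraries, so every MAVS KO library was higher. This rests on 12 to 29 counts of Cox4i2 per library. In CPM it read 0.591, 0.747 and 1.29 against 1.52, 1.94 and 1.98, a log2 fold change of 1.04 (95% interval -0.13 to 2.20, adjusted p = 0.381, edgeR). Cox4i1 itself read 388, 326 and 320 against 331, 371 and 352 CPM (log2 fold change 0.03).

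The forms known from other tissues stayed minor. Cox7a1, the heart and skeletal muscle form, made up 2.68% ± 0.66 of its set in WT and 2.69% ± 0.88 in MAVS KO libraries (SD, n = 3 each), beside 66.0% in each group for Cox7a2 and 31.4% and 31.3% for Cox7a2l, whose product is known for joining complexes III and IV. Cox6a2, also a muscle form, made up 0.180% ± 0.102 and 0.171% ± 0.074 of its pair. The 8 skeletal and heart muscle markers summed to 5.48 to 8.18 CPM in WT and 7.08 to 7.44 CPM in MAVS KO libraries, and their part in these values was not tested. Cox6b2, a testis form, made up 0.309% ± 0.167 of its pair in WT and 0.130% ± 0.038 in MAVS KO libraries, with CPM of 1.18, 1.66 and 0.645 against 0.449, 0.738 and 0.439. Its log2 fold change of -1.09 (SE 0.63, adjusted p = 0.454, edgeR) was within the spread. The groups overlapped in CPM but not in share, where every MAVS KO library lay below every WT library, at 0.121%, 0.172% and 0.0982% against 0.249%, 0.497% and 0.180%, from few counts. Cox7b2 had 0, 0 and 0 counts in WT and 1, 0 and 0 in MAVS KO libraries, and Cox8c 5, 0 and 2 against 2, 0 and 0, so neither testis form was detected above a few counts. The testis markers summed to 0.481 to 0.739 and 0.469 to 1.47 CPM.

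The 3 genes for subunit c of ATP synthase encode the same mature protein with different import signals. Atp5g3 supplied most of their per-length level, 58.9% ± 3.77 in WT and 55.9% ± 1.86 in MAVS KO libraries. Atp5g1 gave 21.2% ± 1.29 and 21.1% ± 0.72, and Atp5g2 gave 17.2%, 22.1% and 20.6% in WT and a mean of 23.0% ± 1.90 in MAVS KO libraries. The groups overlapped for all 3 genes. Atp5g3 read 323, 190 and 184 against 196, 196 and 192 CPM, a log2 fold change of -0.26 (SE 0.19). WT replicate 1 stood apart and the other 5 libraries were nearly level.

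In the set around Ndufa4 the shares of 2 paralogues were separate between the groups. Ndufa4 was named as a complex I subunit and is now placed with complex IV, and Ndufa4l2 and AA467197 (also called Nmes1) are its paralogues. AA467197, which is outside the symbol rule, made up 84.1%, 85.6% and 83.5% of the set in WT and 76.1%, 75.8% and 74.9% in MAVS KO libraries. Ndufa4l2 made up 1.39%, 4.29% and 3.15% against 10.8%, 9.74% and 6.09%. The 2 shares lay on opposite sides of their WT values, Ndufa4l2 above and AA467197 below. Shares are parts of a whole, so a higher share of Ndufa4l2 lowers that of AA467197, and the opposite directions are not independent. Ndufa4 itself made up 12.7% ± 2.27 and 15.5% ± 3.09, with overlap. In CPM AA467197 read 193, 156 and 189 against 135, 150 and 130, a log2 fold change of -0.38 (SE 0.12, adjusted p = 0.142, edgeR). It lies 8.6 Mb from Mavs, and whether that position bears on it was not tested. Ndufa4 read 38.1, 21.1 and 34.8 against 26.7, 32.7 and 37.7 CPM (log2 fold change 0.04).

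**Figure D5:**
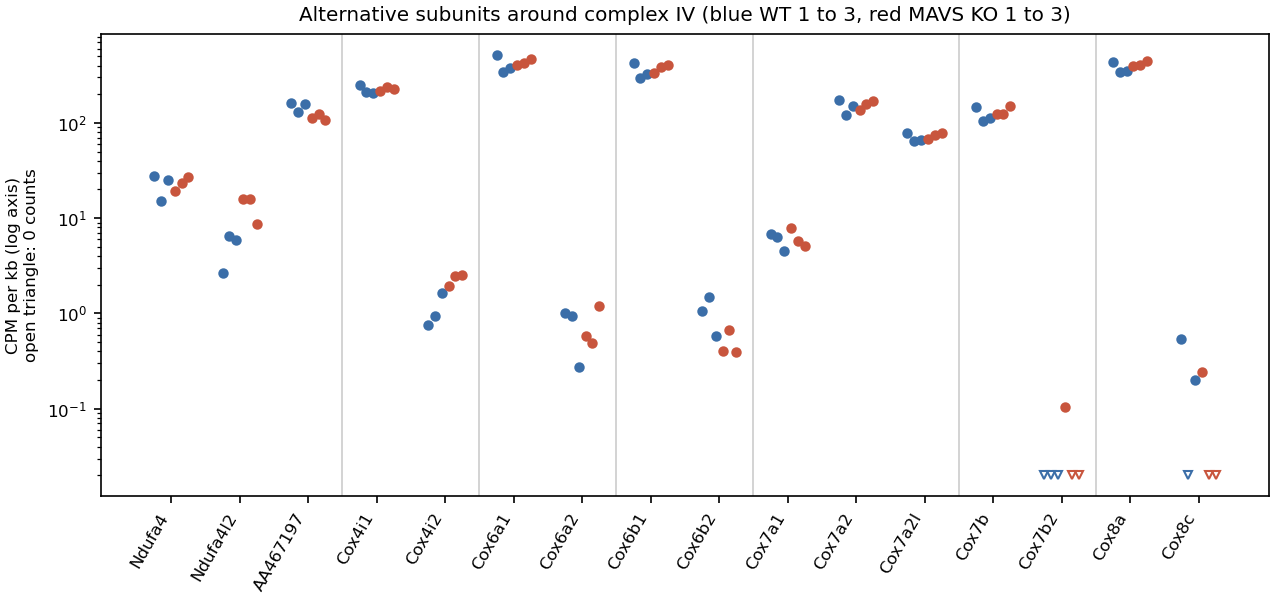
CPM per kb on a log axis of alternative subunits in each library, blue for the WT and red for the MAVS KO libraries, with open triangles at 0 counts and grey lines between sets. The red points of Ndufa4l2 and Cox4i2 all lie above the blue ones and those of AA467197 all lie below, while the abundant forms Cox4i1, Cox6a1, Cox6b1, Cox7a2, Cox7b and Cox8a overlap.

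The genes around the chain were read from further lists. Complex II, which is wholly nuclear and feeds electrons from succinate, had 0 of 4 subunits called and a median log2 fold change of 0.0009. Other subunits and electron carriers outside the symbol rule had 0 of 9 called (median -0.13, 2 positive and 7 negative). Assembly factors gave 0 called of 17 tested for complex I (median -0.13), 0 of 6 for complex III (0.01), 0 of 22 for complex IV (0.01) and 0 of 6 for ATP synthase (-0.06). The mitochondrial ribosome, which translates the mitochondrially encoded members, had 0 of 77 called (median -0.02, 34 positive and 43 negative). Genes that copy, transcribe and process mitochondrial DNA had 0 of 23 called (-0.04), the regulators of nuclear subunit genes 0 of 9 (-0.14), coenzyme Q synthesis 0 of 13 (-0.02), and proton leak and nucleotide carriers 0 of 5 (-0.01). As for the subunits, 2.81% of all tested genes were called.

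Within those lists the members with the lowest p read as follows. Polrmt, the mitochondrial RNA polymerase, stood at 20.2, 20.3 and 17.2 CPM in WT and 16.1, 12.5 and 7.76 CPM in MAVS KO libraries, a log2 fold change of -0.66 (SE 0.25, adjusted p = 0.219, edgeR). Gpd2, the glycerol-3-phosphate dehydrogenase that passes electrons to ubiquinone, stood at 92.0, 91.2 and 125 against 137, 149 and 152 CPM (log2 fold change 0.51, adjusted p = 0.0899). Dhodh, which passes electrons to ubiquinone from pyrimidine synthesis, stood at 24.5, 19.5 and 17.6 against 15.7, 15.4 and 10.4 CPM (log2 fold change -0.57, adjusted p = 0.216). In all 3 the groups did not overlap and the threshold was not passed. Genes picked for a low p tend to have separate groups, and 21.8% of all tested genes had them. Over the lists the groups were separate for 1 higher and 2 lower of 23 genes of mitochondrial DNA expression. The counts were 1 and 1 of 9 other subunits and carriers, and 1 and 3 of 17 complex I assembly factors. Coq6, an enzyme of coenzyme Q synthesis, read 19.7, 25.1 and 16.6 against 15.1, 14.3 and 11.7 CPM, with an adjusted p of 0.185. Ndufaf7, a complex I assembly factor, had a log2 fold change of -0.58 (SE 0.19) and an adjusted p of 0.166, and its groups did not overlap.

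The other genes with the lowest p in these lists, in log2 fold change and edgeR adjusted p, missed the threshold too. In complex II these were Sdhd at 0.10 (0.707) and Sdhb at -0.10 (0.749). Among assembly factors Ndufaf3 stood at 0.37 (0.262), Uqcc1 at 0.18 (0.589), Ttc19 at -0.31 (0.725), Cmc1 at 0.41 (0.261), Fmc1 at -0.27 (0.644) and Atp5s at 0.30 (0.694). Twnk, the helicase of mitochondrial DNA, stood at -0.58 (0.302), and Coq8a, needed for coenzyme Q synthesis, at -1.10 (0.255). Of the regulators, Hcfc1 stood at -0.30 (0.337) and Esrra, an oestrogen-related receptor, at 0.70 (0.385). Mrps2 and Mrpl52 of the mitochondrial ribosome stood at 0.41 (0.184) and 0.29 (0.331). Of the carriers, Ucp3 stood at 0.80 (0.597) and Slc25a5, an ADP/ATP carrier, at -0.15 (0.623).

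One list held a called gene, that of paralogues and hypoxia-linked partners of complex IV, which was chosen with results of these libraries known and includes Ndufa4l2 and Cox4i2, so it is not independent evidence of a direction. Of its 9 genes 8 were positive (median 0.24), and 1 passed the threshold. That gene was Bnip3, a hypoxia-induced receptor for the removal of mitochondria, at 596, 597 and 818 CPM in WT and 1098, 1143 and 997 CPM in MAVS KO libraries. It rose by 0.69 on the log2 scale (SE 0.13; edgeR adjusted p = 0.0284), with every MAVS KO library above every WT library. Higd1a, a hypoxia-induced partner of complex IV, read 178, 147 and 181 against 221, 224 and 244 CPM and missed the threshold (log2 fold change 0.44, SE 0.11, adjusted p = 0.0707). Pdk1, the kinase that holds back pyruvate dehydrogenase, read 149, 143 and 149 against 173, 183 and 168 CPM (log2 fold change 0.24, adjusted p = 0.251). Lonp1, the matrix protease that degrades a subunit 4 form in hypoxia, read 39.5, 37.4 and 31.8 against 39.1, 38.4 and 36.3 CPM. Cell cycle genes moved between the groups as well, with 4 of 7 markers called lower in MAVS KO, against 1.05% of all tested genes. These markers summed to 341 to 546 CPM in WT and 238 to 267 CPM in MAVS KO libraries. Their part in the values of the members was not tested.

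The promoters of nuclear members were searched for letters of known regulators, in RefSeq promoters of GRCm38.p6 that run from 250 bases before to 50 bases after the start. A promoter was found for 62 of the 79 nuclear members, and for 14785 genes of the count table. The NRF1 core CGCATGCGC was in 8 (12.9%), those of Atp5g2, Atp5k, Atp5l, Cox6a1, Ndufa8, Ndufa11, Uqcr11 and Uqcrc1, against 3.1% of the promoters of genes in the table. The GABP core CCGGAAG was in 14 (22.6%) against 15.5%. The YY1 core AAGATGGCG was in 7 (11.3%) against 2.6%, in 5 members of complex I (Ndufa9, Ndufc1, Ndufs4, Ndufs6 and Ndufs7) and 2 of complex V (Atp5j and Atp5j2). The oestrogen-related receptor element TCAAGGTCA was in 1 (1.6%) against 0.4%. By contrast the HIF core ACGTG was in 22.6% against 26.1%, and CCAAT in 43.5% against 41.8%. Each search covered both strands, and no motif contains another. These matches describe letters and not bound sites. One window, the 150 bases before the start of Ndufa11, is shown for the form the NRF1 letters take, in capitals, where the core and its reverse complement overlap.
Ndufa11, chr17:56717612-56717761, plus strand: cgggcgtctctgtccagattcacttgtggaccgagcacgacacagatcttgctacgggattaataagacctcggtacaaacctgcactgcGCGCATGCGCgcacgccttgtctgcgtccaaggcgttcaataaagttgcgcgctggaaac
The 8 members with the NRF1 core had log2 fold changes of both signs, and none passed the threshold. Ndufa11 stood at -0.02, Uqcrc1 at -0.22, Uqcr11 at -0.14, Cox6a1 at 0.06 and Atp5g2 at 0.07. Atp5k stood at 0.38, Ndufa8 at 0.0071 and Atp5l at 0.0021. Only the 95% interval of Atp5k left out no change, so these signs do not decide whether a direction is shared.

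Nearly identical nuclear pseudogenes exist for many nuclear members as well, but they drew few counts. Adding the counts of each copy with at least 95% identity moved the log2 fold change of no tested nuclear member by more than 0.0074 (Cox7c). The largest share in copies among nuclear members was 2.65% of the summed counts, for Ndufs5.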

How the data were processed

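RNA sequencing counts of 3 WT and 3 MAVS KO samples were used. The authors deposited a table of unnormalised counts, 1 whole number for each Ensembl gene and library. The submitters' processing notes name mm10, HISAT2, HISAT, HTSeq and DESeq2 without role or version, and the sources used here give no annotation release, strand setting or treatment of reads with several matches. Overlapping and antisense genes may therefore share reads. GENCODE M21 gave symbols and lengths (26383 of 26519 identifiers matched). The test was edgeR 4.0.16 (R 4.3.3): genes kept by filterByExpr at a minimum count of 10 and total of 15, scaling by TMM, the quasi-likelihood F test without covariates, and Benjamini-Hochberg adjustment over all 12580 tested genes. The script was tested on simulated data. Alternatives used DESeq2 1.42.0, limma 3.58.1, other scalings and filters, a replicate block and leaving out each library. Copies were found with blastn 2.17.0. No library was a duplicate (chi-square over its degrees of freedom, 15.9 to 38.8 within groups). Members and lists were chosen with earlier results of these data known. Genes are named by a rule: all mitochondrially encoded members, untested members and isoform sets, the 4 lowest p and 2 highest levels per nuclear complex, the 2 lowest p per further list, and Mavs. Ndufb2, Uqcrc2, Atp5s, Ndufa11, Ndufs5, Pdk1, Lonp1, the motif-bearing members and the called markers were named after their values were seen.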

Additional observations from a re-analysis of the deposited data

How the results depend on the processing

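Of the members, 0 were called except under 3 settings, each of which called 1, Ndufa4l2: no filter on low counts (924 of all genes called), a mean of at least 5 CPM, and the DESeq2 Wald test (772 of all genes called). Over all genes, 354 were called, and leaving out one library at a time gave 36 to 277, lowest without MAVS KO replicate 3 and moved by over 1.5 times by every library other than WT replicate 3; the test then has fewer samples. With library size alone as the scale, the median log2 fold change was -0.1632 for members, -0.1741 for nuclear members, and -0.2088, -0.2052, -0.0848 and -0.2063 for those of complexes I, III, IV and V, beside -0.1719 for all tested genes; the sign of 20 of 40 named members changed, and none of them passed. The log2 ratio of the nuclear share of counts, -0.2061, was -0.0375 with the TMM-scaled size. A replicate block called 414 genes and 0 members; same-numbered samples correlated at 0.038, 0.087 and -0.043, so the numbers are not taken as pairs. A correction for exon length, chosen after seeing the data, called 381 genes and 0 members, with a member median of -0.0352. Under a mean of at least 5 CPM no mitochondrially encoded complex V member was left to test. With 3 libraries a group, members under 10 CPM (14 of 92) have wide intervals, as Cox6b2, Cox6a2 and Cox4i2 show.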
